A study of Danio rerio with 12 samples.

Results

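The comparison followed here is the change of transcript levels between larval and juvenile eyes of mmachc mutant zebrafish. Whole eyes of the homozygous mutants were taken at 7 and at 28 days post fertilization (dpf), with 3 pools at each age, and RNA of each pool was hybridised to its own Affymetrix expression array. The 6 mutant arrays are part of a series of 12, of which the other 6 hold eyes of fish heterozygous for the mmachc mutation at the same 2 ages, again 3 pools each. Neither the labels nor the design text used here describe the mutant allele, the sex, the strain, the number of fish in a pool or the hour of sampling. Since the comparison fish were heterozygous, every group carried the mutation in some form. All probe sets with exactly 1 gene symbol were used, the brightest standing for its gene, which gave 19260 genes. Of these, 14002 were bright enough to be tested and 5258 were not.

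The mmachc product binds cobalamin (vitamin B12) after its uptake and prepares it for the enzymes that need it, methionine synthase in the cytosol and methylmalonyl-CoA mutase in the mitochondrion. Loss of the human gene causes cblC disease, a combined methylmalonic acidaemia and homocystinuria in which the retina is often affected. Between the larval and the juvenile stage the zebrafish eye grows by adding cells at the ciliary margin, rods join a retina that at first works mainly with cones, the lens adds fibre cells that fill with crystallins, and embryonic red blood cells are replaced by adult ones.

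Levels are log2 values as deposited, so that a difference of 1 is a 2-fold change. A gene is said to have risen or fallen where limma's test of the 28 dpf arrays against the 7 dpf arrays had a Benjamini-Hochberg adjusted p under 0.05 over the 14002 genes; every adjusted p below comes from that fit. A level is called dim where the group's mean was below the 33rd percentile over all named probe sets. Signal over background is not given in the files, so the size of a change to or from a dim level is not exact. Nothing in the labels says whether pools came from separate clutches, and the p-values therefore reflect the spread between pools, which may be technical. In whole eyes, fewer cells of a type and less RNA per cell cannot be told apart.

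Several markers of the eye's own tissues were among the bright signals at both ages. In mutant eyes the rod transducin gene gnat1 measured 11.45 to 11.69 at 7 dpf and 12.15 to 12.18 at 28 dpf, the lens crystallin gene cryba2a 12.5 to 12.6 at both ages, and the glutamine synthetase gene glula of Muller glia 11.37 to 11.57 and 11.69 to 11.76. Other eye markers were weaker. In mutants the Muller glia gene slc1a3b measured 6.11 to 6.43 and was below the cut for dim levels on 4 of 12 arrays. The glial gene gfap measured 6.09 to 6.26 at 7 dpf, and the lens gene lim2.1 6.45 to 7.01 over both ages. The liver and gut markers with a probe set of their own, apoa2, fabp2 and prss1, stayed dim on all 12 arrays. Of the 3 markers of brain outside the eye, emx1 was dim on all 12 arrays. The other brain markers, eomesa (6.19 to 6.56 in mutants) and neurod6a (6.26 to 6.75), lay near the cut for dim levels, as did slc1a3b. They changed by 0.02 and 0.17 with age in limma's test, which did not pass (eomesa and neurod6a, adjusted p = 0.9 and 0.14). Skeletal muscle markers moved with age and are described with that list. The mutated gene could not be used to check the labels, because its probe set is shared between mmachc and hspa8. That joint value changed by 0.13 ± 0.08 (difference ± SE), which did not pass limma's test over all 75212 probe sets (adjusted p = 0.3). Arrays of 1 mutant group correlated over all 75212 probe sets at 0.989 to 0.991, and arrays of the 2 ages at 0.975 to 0.979. The mutant arrays at 28 dpf had a lower upper quartile over all probe sets (7.36 to 7.39) than the other 9 arrays (7.46 to 7.50), although the arrays had been normalized to each other. Its part in the results below was not tested beyond the rescaling that is given with them.

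Between 7 and 28 dpf, 3645 of 14002 genes rose in mutant eyes (26.0%) and 5303 fell (37.9%). A rise of at least 2-fold was seen in 239 genes (1.71%) and a fall of at least 2-fold in 300 (2.14%), of which 177 and 213 were dim at neither age. In 65.7% of the genes the 3 arrays at 28 dpf did not overlap the 3 at 7 dpf. The balance of rises and falls depended on the scaling: 59.3% of the calls were falls as deposited, and 41% after each array was centred on the median of its named probe sets. That centring moved the median change of all tested genes from -0.06 to 0.08 on the log2 scale. A list's median is therefore best read against the median of all genes, -0.06. After centring, 5499 of 14002 genes rose and 3822 fell, and a list's counts after centring are best read against these. Between the ages, 31 genes rose at least 4-fold and 9 fell at least 4-fold.

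Heterozygous eyes give the course of the same 3 weeks with 1 working copy of the gene; there 20.9% of genes rose and 22.1% fell. The heterozygous and mutant age changes share no array. Over genes, which are not independent replicates, they correlated at r = 0.518 with a slope of 0.588, and 1533 genes rose and 1679 fell in both. The age change itself differed between the genotypes in 6610 genes by limma's test of the difference: it was higher in mutants in 18.1% of all genes and lower in 29.1%. Lower differences were 4080 of the 6610 calls, and 2493 of 7054 after centring. Counts of called differences in the lists below are as deposited, and are best read against the shares of 18.1% and 29.1%. The 2 changes had opposite signs in 3640 of the 6610 genes, had the same sign and were larger in mutants in 2164, and smaller in 806. In 950 genes both changes were called, in opposite directions. The first principal component (52.5% of the variance) separated the ages. On it larvae lay at -24.87 to -21.58, juvenile heterozygotes at 15.16 to 16.39 and juvenile mutants farther out, at 27.93 to 32.05. The second component (29.1%) placed the 28 dpf arrays of heterozygotes (27.2 to 28.6) and mutants (-20.5 to -20.0) on opposite sides of the 7 dpf arrays (-10.1 to -1.05).

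**Figure D1:**
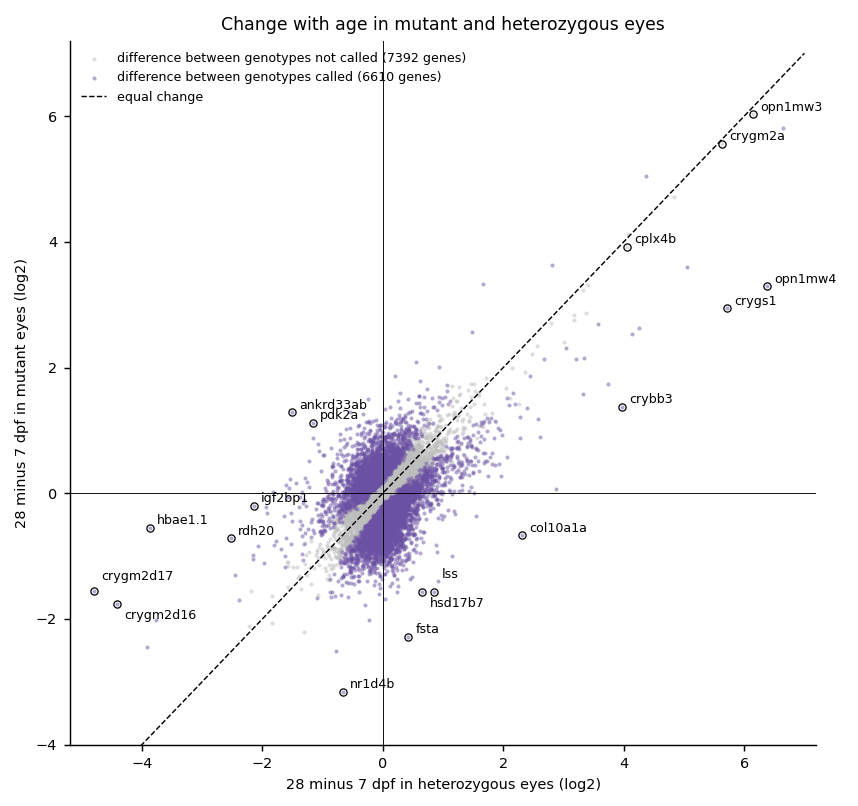
Change from 7 to 28 dpf (log2) in mutant eyes (vertical axis) against that in heterozygous eyes (horizontal axis), 1 point for each of 14002 genes, coloured by whether the difference between the genotypes was called; circles mark named genes. The opsin gene opn1mw3 (6.03 in mutants) lies near the dashed line of equal change, while opn1mw4 (3.29) and hbae1.1 (-0.55) lie far from it.

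Visual pigment and lens genes made up most of the 15 largest rises. The green cone opsin gene opn1mw3 was dim in larval mutant eyes, at 4.75, 4.52 and 4.86, and stood at 10.83, 10.54 and 10.85 in juvenile eyes. This rise of 6.03 ± 0.14 was the largest measured (adjusted p = 3.1e-14). The lens crystallin gene crygm2a went from 6.28, 6.43 and 6.67 to 11.95, 12.01 and 12.10, a rise of 5.56 ± 0.09 (adjusted p = 3.8e-16). In all, 9 of the 15 encode crystallins, which pack the lens fibre cells: crygm6, crygm2a, crybb2, crygm2e, cryba1a, crygs1, crygm7, crygmxl1 and crygm2c rose by 2.71 to 5.81, and crygm7 was dim at both ages. The chaperone-family gene hsc70 (3.63) and the glutamine amidotransferase-like gene gatd3l (3.60) were also among the 15. The complexin gene cplx4b, whose family controls vesicle release at ribbon synapses of photoreceptors and bipolar cells, rose by 3.92 ± 0.19 from a dim larval level. A second green opsin gene, opn1mw4 (3.29), and ugt5g2, of the glucuronosyltransferase family (2.84), complete the group.

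The 15 largest falls came from the clock, from dividing cells, from embryonic blood and from a few lens genes. The clock repressor gene nr1d4b measured 10.80, 10.98 and 10.70 at 7 dpf and 7.35, 7.63 and 8.02 at 28 dpf, a fall of 3.16 ± 0.13 on the log2 scale (adjusted p = 3.8e-11), and its paralogue nr1d4a changed by -2.52 ± 0.11. Both were far lower in heterozygous larvae, where their means were 7.34 and 7.69. The activin antagonist gene fsta went from 8.39, 8.21 and 8.07 to a dim 6.0, 5.88 and 5.92 (-2.29 ± 0.11, adjusted p = 1.8e-10). The embryonic globin gene hbae3 fell by 2.44, soul5, of the haem-binding SOUL family, by 2.07, and alg10, a glucosyltransferase of N-glycan assembly, by 2.01. The mitotic genes ccna2, plk1 and cdc20 and the nuclear import gene kpna2 fell by 1.62 to 1.66. Also among the 15 were the clock genes bmal2 (-1.78) and nr1d1 (-1.64), the lens genes crygm2d6 (-2.01) and crygm2d16 (-1.77), and fhl2b (-1.66), a gene of pigment cells.

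**Figure D2:**
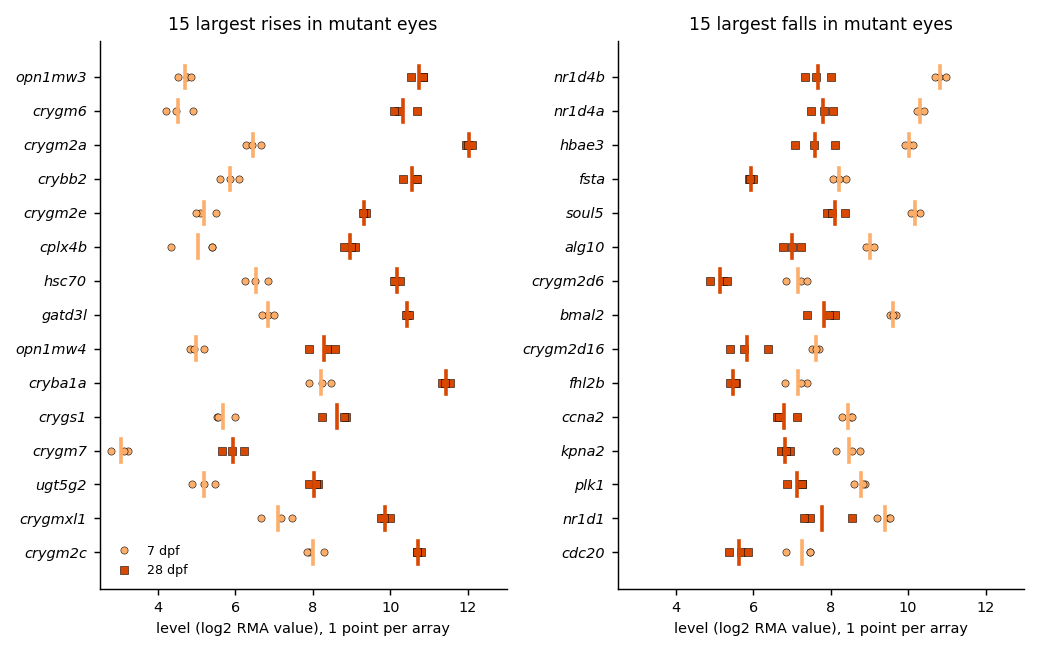
Levels (log2 RMA values) of the 15 largest rises and 15 largest falls in mutant eyes, 1 point per array at 7 dpf (circles) and 28 dpf (squares), with the group mean as a bar. The 3 arrays of each age do not overlap in any of the 30 genes, which is how the genes were chosen.

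Cone genes changed mainly through the opsins that came on late. Of 37 tested cone genes 18 rose and 6 fell, with a median change of 0.04. Zebrafish carry 4 green opsin genes in a row, and opn1mw3 reached nearly the level of heterozygous juveniles in the mutants (means 10.74 and 10.92). Its neighbour opn1mw4 did not: it rose from 4.82, 4.93 and 5.20 to 7.91, 8.36 and 8.56 in mutants, and to a mean of 11.32 in heterozygotes. The difference between the age changes was -3.10 (adjusted p = 8.6e-08). The red opsin gene opn1lw1 started higher in mutant larvae (9.26 to 9.33, against a mean of 7.58 in heterozygotes) and reached 10.97 to 11.06, so that its rise of 1.74 ± 0.07 was smaller than that of heterozygotes by 1.99 (adjusted p = 2.8e-09). The green opsin gene opn1mw1 rose by 1.73 ± 0.18. The opsins that larvae already express strongly moved little: opn1sw1 (ultraviolet) changed by -0.18, opn1sw2 (blue) by 0.01 (adjusted p = 0.77) and opn1lw2 (red) by -0.10 (adjusted p = 0.054). Among the guanylate cyclase activators, which restore cGMP after light, guca1c rose by 1.13 and guca1g fell by 1.11. Opsin genes of 1 cluster are near-identical in places, and probes may be shared between them.

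Most rod genes rose in mutant eyes. Of 25 members 17 rose and 4 fell, with a median change of 0.57 in mutants and 0.58 in heterozygotes, against -0.06 and -0.02 over all genes. The rod transcription factor gene nr2e3 measured 7.64, 7.61 and 7.27 in larvae and 8.81, 8.65 and 8.46 in juveniles (1.13 ± 0.11, adjusted p = 3.6e-07), with no overlap of the ages. The disc rim genes rom1b and rom1a rose by 0.98 and 0.92, the rhodopsin kinase gene grk1a by 0.94, the ion exchanger gene slc24a1 by 1.09 and the cyclase activator gene guca1b by 0.90. Even so, the age change of 10 rod genes was called lower in mutants than in heterozygotes, and that of 3 higher. The rhodopsin gene rho had no probe set of its own.

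Genes of photoreceptor transcription and outer segments went the other way relative to heterozygotes. In mutant eyes 20 of 36 rose and 3 fell (median 0.25; heterozygotes 0.00), and the difference was called higher in 17 and lower in 4. The chaperone gene aipl1, which stabilises the photoreceptor phosphodiesterase, rose by 1.64 ± 0.10 in mutants and by 1.41 in heterozygotes. The outer segment actin bundler gene fscn2b went from 8.50, 8.35 and 8.38 to 9.81, 9.66 and 9.67, by 0.82 more than in heterozygotes (adjusted p = 7.8e-06). Heterozygotes went from a mean of 9.07 to 9.55, so mutants began below them and ended close to them. The nuclear receptor gene rorab rose by 0.63 in mutants and fell by 0.31 in heterozygotes (difference 0.94, adjusted p = 3e-07). Of 22 non-visual opsins 8 rose, among them the melanopsin gene opn4xa (0.84) and the pineal-type rhodopsin gene exorh (0.61), and 2 fell, among them valopa (-0.48).

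The visual cycle, which regenerates the retinal chromophore, was mixed: of 25 genes 11 rose and 6 fell. The isomerase gene rpe65a of the pigment epithelium measured 11.00, 11.00 and 11.01 at 7 dpf and 10.38, 10.01 and 9.97 at 28 dpf (-0.89 ± 0.10, adjusted p = 1.3e-06), near the fall of 0.74 in heterozygotes. The 11-cis retinol dehydrogenase gene rdh5 fell by 1.31 and the retinol-binding protein gene rbp2a by 1.57. Rises were seen in the pigment epithelium channel gene best1 (1.31), in dhrs3b (1.19), which reduces retinal, and in the photoreceptor retinol dehydrogenase gene rdh8b (0.89), the last by 1.04 more than in heterozygotes (adjusted p = 3.3e-06). Melanin genes fell more often than they rose, 12 and 3 of 25, with tyrosinase (tyr, -0.81), rab38a (-0.94), slc24a5 (-0.58) and tspan36 (-0.64) among them. After centring, 8 fell and 7 rose. Genes of iridophores and xanthophores, the reflecting and yellow pigment cells, fell in 13 of 20 cases and rose in 2. They include pnp4a (-0.97), of purine synthesis in iridophores, and the pteridine gene gch2 (-0.77), and their median of -0.31 was close to the -0.34 of heterozygotes.

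Crystallins had the highest median change of the lists with at least 18 tested members. Of 36 crystallin genes 24 rose and 5 fell, 18 and 3 of them at least 2-fold, with a median of 1.03 in mutants and 1.05 in heterozygotes. The other 9 of 45 were too dim to test. The genes crygm6, crybb2, crygm2e, crygs1 and crygm7 were dim in larvae of both genotypes and entered the test through juvenile arrays. For such genes the filter favoured rises in these counts. In the same way crygm2d6 and crygm2d16, dim in juveniles of both genotypes, entered through larval arrays. All 3 alpha crystallins rose, as did 8 of 11 beta and both gamma S crystallins; the falls were all among the 15 gamma M genes, of which 8 rose and 5 fell. Several crystallins rose as in heterozygotes: crybb2 went from 6.10, 5.60 and 5.86 to 10.67, 10.33 and 10.69, a rise of 4.71 against 4.83, and crygm2e by 4.13 against 4.07. For these and crygm2a the difference between genotypes was not called (adjusted p = 0.56, 0.82 and 0.68).

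Other crystallins stopped well short of the heterozygous juvenile level. The gene crybb3 measured 7.23, 7.30 and 7.27 in mutant larvae and 8.89, 8.48 and 8.55 in mutant juveniles, while heterozygotes reached a mean of 11.12. The rise of 1.37 ± 0.08 was smaller than theirs by 2.59 (adjusted p = 1.5e-09). The gamma S gene crygs1 rose by 2.94, from a dim level, against 5.71 in heterozygotes (difference -2.77, adjusted p = 3.1e-07). The larval crystallins of the crygm2d cluster moved the other way. In mutants crygm2d17 went from 10.70, 10.59 and 10.66 to 9.17, 9.33 and 8.78, and in heterozygotes to a mean of 5.88. The fall was less deep in mutants by 3.24 (adjusted p = 1.2e-08), and for crygm2d16 by 2.64 (adjusted p = 3e-06). Members of this cluster are nearly identical in sequence and their single values are uncertain. Of 26 genes of lens fibre membranes and lens factors 16 rose and 0 fell, with lim2.2 (1.93) and grifin (1.62), both abundant in fibre cells, the gap junction gene gja3 (0.63) and lctla (0.98) among them. Their median change was 0.28 in mutants and 0.20 in heterozygotes.

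Embryonic globin transcripts stayed higher in juvenile mutants than in juvenile heterozygotes. The embryonic alpha globin gene hbae1.1 measured 10.50, 10.60 and 10.12 in mutant larvae and still 9.55, 10.13 and 9.90 in mutant juveniles, with 10.13 just above the lowest larval array, while heterozygotes went from a mean of 10.54 to 6.67. The fall of 0.55 ± 0.16 (adjusted p = 0.008) differed from the heterozygous one by 3.32 (adjusted p = 8.6e-08), the largest positive difference of all named genes. Without juvenile mutant pool 1 the change was -0.40 and no longer passed (adjusted p = 0.053). The related gene hbae3 fell by 2.44 in mutants and by 3.92 in heterozygotes (difference 1.48, adjusted p = 0.00022). The beta globin gene hbbe2 rose by 0.69 in mutants and fell by 0.72 in heterozygotes (difference 1.40, adjusted p = 2.6e-05). Adult globins could be followed only through probe sets that list several genes, fitted over all 75212 probe sets. A probe set of the adult alpha globin gene hbaa1 and a clone-named gene went from 4.04, 3.91 and 3.85 to 8.77, 8.53 and 9.03 in mutants (4.85 ± 0.17, adjusted p = 1.8e-08), and stood at 9.98 to 10.40 in heterozygous juveniles. A second probe set of the same 2 genes changed far less. It went from 4.32, 4.37 and 4.19 to 4.89, 4.79 and 5.11 in mutants (0.64 ± 0.13, adjusted p = 0.0037), dim at both ages. In heterozygous juveniles it stood at 5.86 to 6.21. A joint probe set of hbba1 and its neighbours changed by 0.32 ± 0.21 (adjusted p = 0.32). The joint probe set of hbbe1.1, hbbe1.2 and hbbe1.3 fell by 1.01, to 7.51, 8.15 and 7.69, against 6.25 to 6.39 in heterozygotes. That of hbbe2 and hbae5 rose by 1.44 in mutants, to 7.88, 7.92 and 7.48. In heterozygotes it went from 6.38 to 6.44 in larvae to 7.00 to 7.15 in juveniles.

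Of 18 other red cell genes 5 rose and 8 fell, shares near the 26.0% and 37.9% of all genes. The haem synthesis gene alas2 rose by 0.59 and the carbonic anhydrase gene cahz by 0.57, while the later haem synthesis genes urod (-0.94) and fech (-0.67) and the ammonium transporter gene rhag (-0.62) fell.

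Genes of cell division fell almost without exception. Of 99 tested genes of the cell cycle and DNA replication 96 fell and 0 rose, 24 of them by at least 2-fold, against 37.9% of all genes that fell; 89 fell and 1 rose after centring. Heterozygotes had 87 falls and 0 rises. The median change was -0.84 in mutants and -0.46 in heterozygotes, and the age change of 44 genes was called lower in mutants and of 2 higher. The cyclin A gene ccna2, needed for S phase and entry into mitosis, went from 8.52, 8.56 and 8.29 to 6.62, 6.66 and 7.12 in mutants, and from a mean of 8.43 to 7.86 in heterozygotes. Its fall was deeper in mutants by 1.09 on the log2 scale (difference -1.09, adjusted p = 7.6e-05). The mitotic kinase gene plk1 fell by 1.64, the condensin gene ncaph by 1.46, and the cytokinesis genes prc1b and ect2 by 1.44 and 1.42. The replication clamp gene pcna fell by 0.91.

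Genes of retinal progenitors and the ciliary margin, where the fish retina grows, had 20 falls and 12 rises among 47 members. These shares were near those of all genes (37.9% and 26.0%). After centring there were 16 of each, beside 3822 falls and 5499 rises among all 14002 genes. The progenitor factor gene sox19a fell by 1.31 to a dim level, the Notch ligand gene dlc by 0.72, the ganglion cell determinant gene atoh7 by 0.67 and the radial glia lipid binder gene fabp7a by 0.67. Among 44 genes of young neurons 20 rose and 11 fell (28 and 11 after centring). Falls were seen in the microtubule destabiliser stmn1a (-1.58) and the chromatin proteins hmgb1a (-1.26) and hmgb3a (-1.10), and rises in stmn1b (0.95) and the adhesion gene alcamb (0.75).

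Genes of the lin28, igf2bp and hmga families, known from mammals as marks of early developmental stages, in several cases fell less in mutants than in heterozygotes. Of 12 such genes and their partners 7 fell and 0 rose in mutants (3 fell and 2 rose after centring), with a median of -0.17 against -0.51 in heterozygotes, where 10 fell and 1 rose. The age change was called higher in mutants in 7 and lower in 1. The RNA-binding protein gene igf2bp1 measured 9.86, 9.91 and 9.84 in mutant larvae and 9.64, 9.78 and 9.57 in mutant juveniles, and 9.86 and 7.71 on average in heterozygotes. The age groups of mutants did not overlap, but the fall of 0.20 ± 0.06 was less deep than that of heterozygotes by 1.94 (adjusted p = 1.5e-09). Smaller differences of the same sign were measured in igf2bp3 (1.06, adjusted p = 2.4e-06) and in the chromatin protein gene hmga2 (0.98, adjusted p = 8.9e-06), which fell by 0.21 and 0.83 in mutants. After centring the mutant changes of igf2bp1 (-0.07, adjusted p = 0.3) and igf2bp3 (-0.08, adjusted p = 0.37) did not pass, and that of igf2bp3 was also lost without larval pool 2 (-0.18), juvenile pool 1 (-0.16) or juvenile pool 3 (-0.21).

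Growth factor genes of the insulin-like growth factor (IGF) and growth hormone axis rose more often than they fell, 14 and 4 of 28, with a median of 0.22 in mutants and -0.02 in heterozygotes. The growth factor gene igf2a rose by 1.15 ± 0.11, as in heterozygotes (1.43), and the IGF-binding protein gene igfbp1a fell by 1.24. The insulin receptor substrate gene irs1 went from 8.49, 8.33 and 8.37 to 9.39, 9.29 and 9.19, by 0.90 more than in heterozygotes (adjusted p = 5.2e-06), and socs2, an inhibitor of growth hormone signalling, rose by 0.82, by 0.85 more than in heterozygotes (adjusted p = 4e-05). The receptor gene igf1rb fell by 0.71, and the secreted glycoprotein gene stc2a by 1.12, the latter by 0.97 more than in heterozygotes (difference -0.97, adjusted p = 0.00023). In the thyroid hormone axis, which drives the change to juvenile form in fish, 4 of 15 genes rose and 3 fell (7 and 2 after centring). The share of rises (26.7%) was near the 26.0% of all genes, and that of falls (20%) below their 37.9%. The receptor genes thrab (0.48) and thrb (0.25) rose and the partner receptor genes rxrgb (-0.70) and rxrbb (-0.50) fell.

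Genes of neurons that signal rose in many of the lists. Of 87 potassium channel genes 43 rose and 10 fell (median 0.21, heterozygotes -0.03), of 50 sodium and calcium channel genes 22 rose and 2 fell (0.15 and -0.03), and of 91 axon guidance genes 38 rose and 7 fell (0.15 and 0.07). After centring the rises numbered 58, 37 and 63. The difference between genotypes was called higher in 35 potassium and 23 sodium or calcium channel genes, and lower in 7 and 2. The voltage-gated channel gene kcnd1 went from 8.21, 8.09 and 8.25 to 9.08, 9.03 and 9.15 (0.90 ± 0.07, adjusted p = 2.9e-08). Its partner subunit gene kcnip1a rose by 0.92 and kcna10a by 1.02. An exception was the inward rectifier gene kcnj20, which fell by 0.94 in mutants and rose by 0.90 in heterozygotes (difference -1.84, adjusted p = 1.9e-05). The sodium channel gene scn5lab rose by 0.75, the calcium channel subunit gene cacnb2b by 0.54, and the guidance cue genes sema3fa and sema3fb by 0.75 and 0.71.

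Among genes of vesicle release 30 of 73 rose and 18 fell (40 and 11 after centring). Besides cplx4b, the second ribbon synapse complexin gene cplx4c went from 9.43, 9.30 and 9.24 to 10.52, 10.65 and 10.53, and its rise of 1.24 ± 0.06 was that of heterozygotes (1.24). Of 35 glutamate receptor genes 9 rose, a share near that of all genes, and 7 fell (14 and 2 after centring): gria1b rose by 0.51, and grm6b, of the receptor family that ON bipolar cells use, fell by 0.44. Of 26 genes of GABA and glycine receptors 11 rose and 5 fell in mutants, while 2 rose and 14 fell in heterozygotes (medians 0.08 and -0.23). The difference was called higher in 13 and lower in 3. The GABA receptor gene gabrr1, of the rho type found in the retina, measured 8.33, 8.12 and 8.38 and then 9.25, 8.93 and 8.85 in mutants, while the heterozygous mean went from 9.30 to 8.65 (difference 1.38, adjusted p = 1.1e-06). For gabrr2a the difference was 1.33 (adjusted p = 3.6e-07). In both genes mutant eyes began below and ended above the heterozygous mean.

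Markers of the inner retina's cell types gave smaller shifts. Of 23 bipolar cell genes 10 rose and 7 fell (12 and 3 after centring): the calcium-binding protein gene cabp5a went from 8.95, 8.88 and 8.69 to 10.73, 10.66 and 10.65 (1.84 ± 0.07, adjusted p = 3.6e-11), cabp5b rose by 1.34, by 1.31 more than in heterozygotes (adjusted p = 4.9e-07), and the transcription factor gene fezf1 fell by 0.96. Of 29 ganglion cell genes 9 rose (31%, near the 26.0% of all genes) and 6 fell (20.7%, against 37.9%), or 18 and 3 after centring. The neuronal intermediate filament genes prph (1.21) and inaa (0.87) rose, and atoh7 (-0.67) fell. Of 20 horizontal cell genes 9 rose and 3 fell, the connexin gene gja9a (0.38) among the rises. Amacrine cell genes had 2 rises (7.41%) and 6 falls (22.2%) among 27, both shares below those of all genes, and 7 and 3 after centring. The calcium buffer gene calb1 rose by 0.98, and the vesicular transporter genes for acetylcholine (slc18a3a, -0.70) and GABA (slc32a1, -0.34) fell.

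Muller glia, the support cells of the retina, had 15 rises and 4 falls among 35 genes, and the difference between genotypes was called higher in 15 and lower in 5. The intermediate filament gene vim, listed with reactive glia, went from 8.05, 7.98 and 7.81 to 10.03, 9.99 and 10.06 in mutants (2.08 ± 0.09, adjusted p = 1e-10). In heterozygotes its mean went from 8.30 to 8.84, and the difference was 1.54 (adjusted p = 4.4e-07). The glial filament gene gfap rose by 1.18 in mutants and 0.99 in heterozygotes. The membrane protein gene itm2cb rose by 1.86, by 1.66 more than in heterozygotes (adjusted p = 1.6e-06), and the glutamate transporter gene slc1a2a by 1.12, by 0.92 more (adjusted p = 5.3e-06). The mutant mean of slc1a2a lay below the heterozygous one in larvae (9.12 and 10.17) and close to it in juveniles (10.2 and 10.4). Of 32 genes of reactive glia and regeneration 14 rose and 7 fell, with the injury-response gene gadd45ba (0.73) rising and the AP-1 factor gene fosl1a (-1.42) falling. Of 21 myelin genes 8 rose and 3 fell, led by the myelin basic protein gene mbpa (1.28, dim at 7 dpf).

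Immune genes could be followed only in part, because most were too dim to test: 20 of 39 macrophage, 14 of 78 antigen presentation, 22 of 81 interferon, 5 of 26 complement and 2 of 14 neutrophil genes passed the filter, and a gene that passed because 1 group was bright had to differ. Within these, 12 macrophage genes rose and 1 fell, but their median of 0.35 became -0.038 when the filter was set at the 50th percentile. The myeloid regulator gene spi1b (0.95) was dim on average in the other 3 groups, and mpeg1.2 (0.91) was dim in mutant larvae. The invariant chain gene cd74a, which guides antigen-presenting MHC class II, went from a dim 5.65, 5.90 and 6.21 to 8.11, 8.13 and 7.97 (2.15 ± 0.15, adjusted p = 1.1e-08). It rose by 1.19 less than in heterozygotes (difference -1.19, adjusted p = 0.00028). Of 5 complement genes 4 rose and 0 fell. Of 22 interferon genes 6 rose (27.3%, near the 26.0% of all genes) and 4 fell (18.2%, against 37.9%), or 10 and 4 after centring. The gene ifi27.2 fell the most (-1.14). The 2 neutrophil genes tested, il1b (0.35) and csf3b (0.26), rose; csf3b did not pass without larval pool 1 (0.13) or juvenile pools 1 (0.25) or 3 (0.24).

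Many connective tissue genes rose less in mutant than in heterozygous eyes. Of 41 collagen genes 7 rose and 8 fell in mutants (17 and 4 after centring), and 24 rose and 1 fell in heterozygotes, with medians of 0.03 and 0.38. The difference was called lower in 22 and higher in 0. The fibril genes col2a1a (-0.43), of vitreous and cartilage, and col11a1a (-0.51) fell in mutants, and col17a1b, of epithelial anchoring, rose (0.56). The cartilage gene col10a1a measured 6.81, 7.67 and 6.91 and then 6.63, 6.07 and 6.68 in mutants, a change of -0.67 ± 0.39 that did not pass (adjusted p = 0.14), while the heterozygous mean rose from 5.96 to 8.26 (difference -2.97, adjusted p = 0.00037). Proteoglycan, cartilage and sclera genes rose in 13 and fell in 9 of 44 cases in mutants (24 and 6 after centring) and in 24 and 5 in heterozygotes. Decorin (dcn) rose by 0.87 in mutants and by 1.69 in heterozygotes, the cartilage gene ucmaa by 1.6 and 2.16, and matn4, a matrix linker, fell by 1.53 and 1.37. Of 53 matrix remodelling genes 19 rose and 11 fell (30 and 6 after centring), and the difference was called lower in 24 and higher in 6. The inhibitor genes timp2a (1.03) and timp2b (0.77) rose.

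Of 43 keratin and junction genes of the surface epithelium 19 rose and 8 fell: krt94 rose by 1.18, krt8 by 1.07 and krt15 by 1.17, and the annexin gene anxa1c fell by 1.31. The median of 0.25 in mutants compares with 0.27 in heterozygotes. Of 32 vascular genes 18 rose and 2 fell, among them the VEGF receptor genes kdrl (0.81) and kdr (0.54) and the smooth muscle actin gene acta2 (0.58).

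Skeletal muscle genes rose with age in both genotypes, and unevenly among mutant pools. Of 39 tested of 81 muscle genes 26 rose and 2 fell in mutants, 9 of the rises at least 2-fold, with a median of 0.50 against 0.94 in heterozygotes. The other 42 were too dim to test. A gene dim in larvae entered the test only where juvenile arrays were bright, so the filter favoured rises in these counts. The creatine kinase gene ckma, which was tested, lay below the cut on 7 of 12 arrays. The summed level of the list was 13.01 to 13.15 at 7 dpf and 13.12 to 13.52 at 28 dpf on the log2 scale. The fast muscle light chain gene mylpfa measured 6.25, 6.47 and 6.28 at 7 dpf and 8.27, 6.82 and 8.19 at 28 dpf (1.42 ± 0.30, adjusted p = 0.0007). The fast myosin gene myhz2 measured 7.92, 5.61 and 7.64 at 28 dpf, and the troponin C gene tnnc2.2 8.29, 7.06 and 8.71, so that pool 2 was the lowest of the 3 in each. Pool 2 was also lowest in myl1, ckmb, actn3a, ckma and tnnt3b. This did not hold for every muscle gene. The muscle markers actc1a (7.89, 7.98 and 7.96) and acta1b (7.07, 7.24 and 7.31) were lowest in pool 1 at 28 dpf. For myhz2 pool 2 lay within the larval range of 4.99 to 5.83. Without that pool the rises were 1.89 in mylpfa, 2.43 in myhz2 and 1.99 in tnnc2.2, and the median of the list was 0.69.

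Several glycolytic genes were lowest in the same pool. The aldolase gene aldoab stood at 7.23, 6.65 and 7.10 in juvenile mutants, gapdh at 7.62, 7.04 and 7.42, and the pyruvate kinase gene pkmb at 7.12, 6.32 and 7.30, all 3 dim at 7 dpf and lowest in pool 2 at 28 dpf. How much of their rises of 1.42, 1.36 and 0.99 came with the muscle genes was not tested. Without pool 2 they were 1.59, 1.52 and 1.29, and the median of all tested glycolysis genes was 0.155. Over all 46 genes of glycolysis 22 rose and 9 fell in mutants, and 16 and 21 in heterozygotes (medians 0.15 and -0.12). Pyruvate dehydrogenase kinases inhibit pyruvate dehydrogenase, the mitochondrial enzyme that passes pyruvate on to the tricarboxylic acid cycle. For pdk2a and pdk2b the 3 juvenile pools lay above the 3 larval ones. Of the other kinase genes named, pdk4 also rose (0.43, adjusted p = 0.00024), pdk1 did not pass (0.10, adjusted p = 0.19) and pdk3a fell (-0.14, adjusted p = 0.042). The change of pdk3a was about the size of the shift under centring, which moved the median of all genes from -0.06 to 0.08. Its value after centring is not given here. The kinase gene pdk2a went from 8.57, 8.52 and 8.28 to 9.70, 9.43 and 9.59 (1.12 ± 0.11, adjusted p = 4.7e-07) and pdk2b from 6.28, 6.5 and 6.41 to 7.63, 7.70 and 7.75 (1.29 ± 0.11). Heterozygotes had falls of 1.17 and 0.55, and the differences were 2.28 (adjusted p = 8.6e-08) and 1.84 (adjusted p = 3.9e-07).

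Mitochondrial respiration genes fell across all complexes of the chain. Of 91 members 77 fell and 6 rose in mutants, against 23 and 8 in heterozygotes, with medians of -0.41 and -0.05. After centring 61 fell and 9 rose. The difference was called lower in 55 and higher in 4. By complex, as grouped by gene name, 26 of 32 genes of complex I fell and 7 of 9 of complex II with its assembly factors. The falls were 13 of 13 in complex III with its assembly factors, 13 of 18 in complex IV and 17 of 18 in complex V. The complex I group holds ndufa4a, ndufa4b and ndufa4l2a by name, although NDUFA4 is now placed in complex IV. The median change of complex II was alike in mutants (-0.435) and heterozygotes (-0.434). For complexes I, III, IV and V the medians were -0.47, -0.52, -0.42 and -0.29 in mutants and 0, -0.09, -0.07 and -0.04 in heterozygotes. The gene ndufa4b measured 10.93, 10.77 and 10.70 at 7 dpf and 10.01, 9.59 and 9.70 at 28 dpf (-1.03 ± 0.09, adjusted p = 9.2e-08), while the heterozygous mean went from 10.94 to 11.03 (difference -1.13, adjusted p = 4.8e-06). The assembly factor genes sdhaf2 and uqcc1 fell by 1.19 and 0.92, and the complex I subunit gene ndufa10 by 0.90. In the tricarboxylic acid cycle 17 of 24 genes fell and 1 rose (9 and 4 after centring), with the succinyl-CoA ligase genes suclg2 (-0.74) and suclg1 (-0.48) and the isocitrate dehydrogenase genes idh3b (-0.59) and idh3a (-0.48) falling and pdha1b, of pyruvate dehydrogenase, rising (0.89).

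Genes of cholesterol synthesis fell in mutants, and most differed from heterozygotes by the test of the difference. Of 23 genes 19 fell and 2 rose in mutants (7 of the falls at least 2-fold; 16 fell and 2 rose after centring), whereas 3 fell and 9 rose in heterozygotes. The medians were -0.53 and 0.08. The difference was called lower in 14 genes and higher in 1, against 29.1% and 18.1% of all genes. Lanosterol synthase (lss), which closes the sterol rings, went from 6.67, 6.53 and 6.43 to a dim 5.12, 4.79 and 4.99, while heterozygotes rose from a mean of 6.34 to 7.19 (difference -2.43, adjusted p = 5e-08). The epoxidase gene sqlea, a step before it, went from 8.18, 7.95 and 7.80 to 6.18, 6.63 and 6.92 (difference -2.31, adjusted p = 5.4e-07). Differences of -2.23 and -2.15 were measured in the later genes hsd17b7 and sc5d (adjusted p = 4e-09 and 5.4e-08), which fell by 1.57 and 1.0 in mutants, and of -1.59 and -1.32 in msmo1 and tm7sf2 (adjusted p = 1.9e-07 and 1.8e-05).

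Fatty acid oxidation had 20 falls and 3 rises among 34 genes in mutants and 21 and 2 in heterozygotes, with medians of -0.27 and -0.28; hadhaa (-0.94), of the trifunctional protein, and the carnitine transferase gene cpt1aa (-0.65) were among the falls in mutants. Of 38 genes of fatty acid synthesis 10 rose (26.3%) and 12 fell (31.6%), shares near those of all genes (18 and 10 after centring). The elongase gene elovl2, which makes the long fatty acids of photoreceptor membranes, fell by 0.91, and the regulator gene srebf1 rose by 0.62.

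The pathway in which mmachc acts had shares of calls near or below those of all genes. Of 46 genes of cobalamin, folate and the methionine cycle 17 fell and 7 rose in mutants, against 37.9% and 26.0% of all genes, and 14 of each after centring. The median of -0.07 was close to that of all genes. Falls were seen in the thymidylate synthase gene tyms (-1.10), which also belongs to DNA replication, in the mitochondrial folate gene mthfd1l (-0.92), the glycine cleavage gene gcsha (-0.90) and mmadhcb (-0.80), whose product receives cobalamin after mmachc. Rises were seen in bhmt, which remethylates homocysteine with betaine and went from 8.0, 7.91 and 7.69 to 8.81, 8.32 and 8.85 (0.79 ± 0.13, adjusted p = 5.5e-05), and in mat1a (0.63), which makes S-adenosylmethionine. In heterozygotes these 2 genes changed by -0.10 and -0.41. Branched chain and propionate catabolism, which leads to methylmalonyl-CoA, had 20 falls and 2 rises among 30 genes (16 and 6 after centring): the leucine pathway genes mccc1 (-0.85) and mccc2 (-0.77) and the keto acid dehydrogenase gene bckdha (-0.68) fell.

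**Figure D3:**
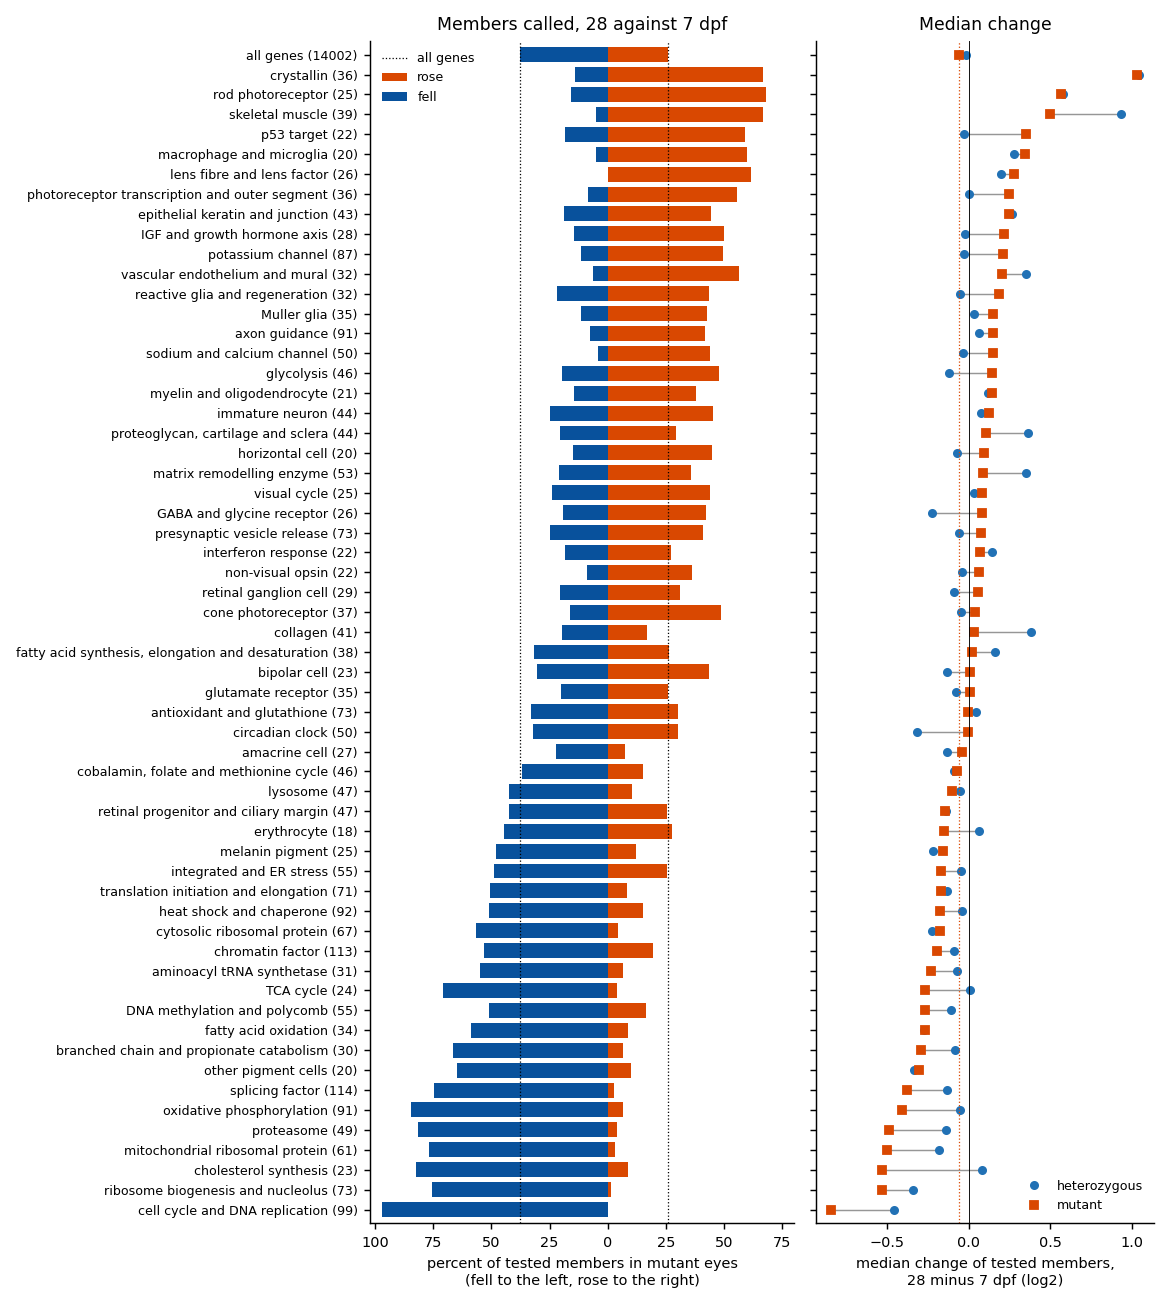
Left, percent of tested members that fell or rose in mutant eyes for each gene list with at least 18 tested members (number tested in brackets), with dotted lines at 26.0% and 37.9% for all genes. Right, median change of the same members in mutant (squares) and heterozygous (circles) eyes, with a dotted line at the median of all genes in mutants (-0.06): cell cycle genes are lowest (-0.84) and crystallins highest (1.03).

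Most lists of genes that make, fold or remove proteins had a larger share of falls than the 37.9% of all genes. Of 61 mitochondrial ribosomal protein genes 47 fell and 2 rose, with a median of -0.50 against -0.18 in heterozygotes; mrpl27 went from 9.27, 9.19 and 9.01 to 7.82, 7.93 and 7.78 (-1.31 ± 0.08, adjusted p = 2.8e-09). Large (29 of 39) and small subunit genes (18 of 22) both took part. Cytosolic ribosomal protein genes had 38 falls and 3 rises among 67 members (medians -0.18 and -0.22); 23 fell and 7 rose after centring. The gene rps20 fell by 0.76 and rpl36a by 0.76. Of 73 ribosome assembly genes 55 fell and 1 rose (medians -0.54 and -0.34), among them utp15 (-1.22), nol10 (-1.08) and the nucleolar chaperone npm1a (-1.05).

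Among translation factors 36 of 71 fell and 6 rose, with 24 and 19 after centring. The initiation factor gene eif4g2a went from 10.42, 10.43 and 10.34 to 9.42, 9.57 and 9.57, by 0.91 below the heterozygous change (difference -0.91, adjusted p = 3.9e-07). Of the 12 mitochondrial tRNA synthetase genes, whose names end in 2, 8 fell and 0 rose (median -0.57; heterozygotes 0.05), and of the 16 cytosolic ones 8 fell and 1 rose (-0.18 and -0.13). The mitochondrial valine enzyme gene vars2 fell by 1.04, with a difference of -1.18 (adjusted p = 1.2e-06).

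Of 49 proteasome genes 40 fell and 2 rose, against 16 and 2 in heterozygotes, and the difference was called lower in 29 and higher in 0. Both the core (14 of 17 fell) and the regulatory particle (20 of 22) took part; psma6a fell by 0.88 and psmd11b by 0.78. Of 114 splicing genes 85 fell and 3 rose (66 and 9 after centring), with the spliceosome genes snrpc (-1.03) and u2af1 (-1.01) among them, and the difference was called lower in 53 and higher in 2. Of 92 chaperone genes 47 fell and 14 rose, with 33 and 25 after centring. The small heat shock protein gene hspb1 went from 7.24, 7.15 and 6.65 to 8.50, 8.48 and 8.6 (1.51 ± 0.11) against the trend, and the mitochondrial import chaperone gene dnajc15 fell by 1.17. Of 47 lysosome genes 20 fell (42.6%, near the 37.9% of all genes) and 5 rose (15 and 14 after centring). The proton pump gene atp6v1b2 fell by 0.79, while cst14b.1, a cystatin gene, rose by 2.22, much as in heterozygotes (2.48).

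Chromatin genes fell more often than they rose, 60 and 22 of 113, and 44 and 35 after centring. The remodeller gene smarcad1a went from 8.76, 8.68 and 8.41 to 7.08, 7.23 and 7.17, and the heterozygous mean from 8.50 to 8.34 (difference -1.30, adjusted p = 7.9e-07). The nucleosome-binding genes hmgb1b (-1.28), hmgn2 (-1.19) and hmgn7 (-1.14) fell and the linker histone gene h1-10 rose (1.14, from a dim level). Among DNA methylation and polycomb genes 28 of 55 fell and 9 rose (25 and 18 after centring). The maintenance methyltransferase gene dnmt1 fell by 1.11 and the polycomb core gene suz12a by 0.89. The polycomb reader gene cbx7a went from 7.06, 6.91 and 7.09 to 8.09, 7.97 and 7.63 in mutants and from 7.31 to 6.16 on average in heterozygotes (difference 2.03, adjusted p = 3e-07).

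Clock genes had shares of calls near those of all genes in mutants, while some members changed strongly. Of 50 members 15 rose (30%) and 16 fell (32%) in mutants, beside 26.0% and 37.9% of all genes (23 and 13 after centring). In heterozygotes 4 rose and 27 fell. The medians were -0.002 and -0.32, and the difference was called higher in 25 and lower in 9. Beside nr1d4b, whose change was lower than that of heterozygotes by 2.49 (difference -2.49, adjusted p = 1.2e-07), the activator gene bmal2 fell by 1.78 and the ubiquitin ligase gene fbxl3l by 1.31. The repressor gene nr1d1 fell by 1.64 ± 0.26, from 9.19, 9.51 and 9.53 to 8.55, 7.46 and 7.30, near the fall of 1.85 in heterozygotes. Rises were measured in the repressor gene bhlhe41 (1.27, difference 1.59, adjusted p = 5.7e-06) and in dbpb, a clock output factor (0.78 ± 0.12, difference 1.85, adjusted p = 1e-06). Clock transcripts cycle over the day, and no hour of sampling was recorded in the labels, so a change with age and a change of the hour cannot be told apart. Pools of juvenile mutants differed more in clock genes (median SD 0.147) than in all genes (0.093), and those of juvenile heterozygotes did so too (0.155 and 0.08), whereas larval pools did not (0.082 and 0.09 in mutants).

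Stress genes moved in separate directions. Of 22 genes around p53, 13 rose and 4 fell in mutants (median 0.35; heterozygotes -0.03), and the difference was called higher in 11 and lower in 2. The pro-apoptotic gene bbc3 (puma) went from 6.88, 6.95 and 6.90 to 7.95, 7.66 and 7.93 (0.93 ± 0.10), and fell by 0.35 in heterozygotes (difference 1.29, adjusted p = 3e-06). The stress-induced sesn1 rose by 0.77 and the survival genes mcl1a and mcl1b by 0.70 and 0.68. The cell cycle inhibitor gene cdkn1a (p21), the best-known p53 target, instead fell, from 7.63, 7.84 and 7.45 to 6.23, 6.27 and 6.31 (-1.37 ± 0.13, adjusted p = 2.8e-07). Genes of the integrated and endoplasmic reticulum stress responses fell in 27 and rose in 14 of 55 cases (21 and 20 after centring): the protein disulfide isomerase genes pdia7 (-0.92) and pdia8 (-0.89) fell, and the transcription factor genes atf5a (0.82) and atf5b (0.78) rose. Of 73 antioxidant genes 22 rose and 24 fell, shares near those of all genes (33 and 14 after centring), with the thioredoxin genes txndc5 (-1.18) and txna (-0.98) falling and the glutathione-handling ggt5a rising (0.75).

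The genes with the largest opposite changes were drawn from several of these lists. By the rule used, they are ankrd33ab, fsta, lss, sqlea, pdk2a, hsd17b7, sc5d and cbx7a. The ankyrin repeat gene ankrd33ab, of a photoreceptor and pineal family, went from 7.63, 7.33 and 7.60 to 9.19, 8.43 and 8.79 in mutants, and from 9.24 to 7.73 on average in heterozygotes (difference 2.80, adjusted p = 5.4e-06). For fsta the mutant change of -2.29 stood beside a rise of 0.42 in heterozygotes (difference -2.71, adjusted p = 1.1e-08), and the 2 genotypes ended near each other, at 5.93 and 6.18, both dim. The levels of these 8 genes followed different courses. In fsta the genotypes were apart in larvae and close in juveniles. In lss, sqlea, hsd17b7 and sc5d they were close in larvae and apart in juveniles. In ankrd33ab, pdk2a and cbx7a the mutant mean lay below the heterozygous one in larvae and above it in juveniles. For cbx7a the larval difference of -0.295 did not pass limma's test of the genotypes at 7 dpf (adjusted p = 0.12). The retinol dehydrogenase gene rdh20 changed by -0.72 in mutants and -2.52 in heterozygotes (difference 1.80, adjusted p = 1.2e-06).

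**Figure D4:**
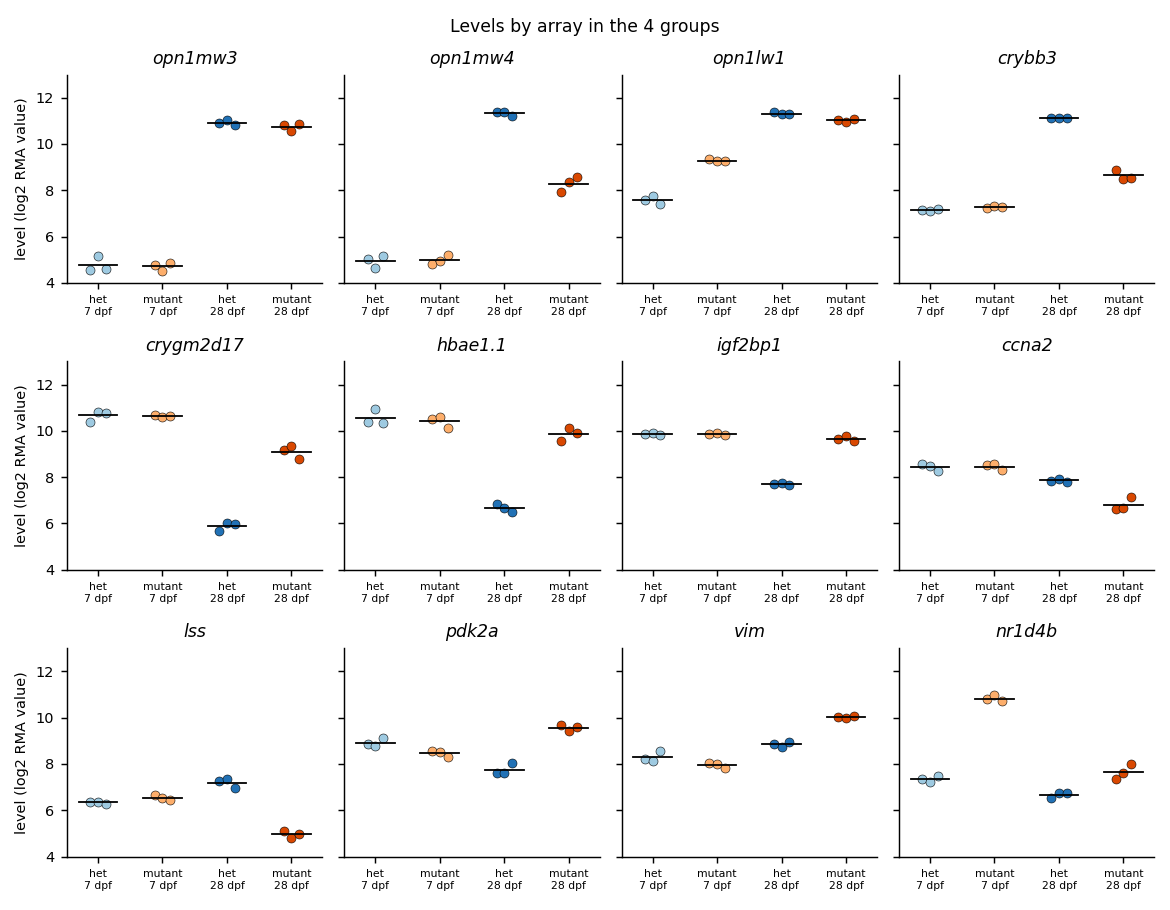
Levels (log2 RMA values) of 12 named genes on all 12 arrays, 1 point per array and a bar at each group's mean, for heterozygous (blue) and mutant (orange) eyes at 7 and 28 dpf. In hbae1.1 and igf2bp1 the juvenile mutants (9.55 to 10.13 and 9.57 to 9.78) stand near the larval levels, and in nr1d4b the larval mutants (10.70 to 10.98) stand apart from the other 3 groups.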

How the data were processed

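Each array's deposited file holds log2 intensities by probe set. According to the submitters' processing notes the authors used Expression Console (Affymetrix) with the RMA method; no version is named, and no genome build is given. The labelling protocol mentions a human or mouse array, whereas the platform annotation used for gene names is for zebrafish. Of 75212 probe sets, 20806 had 1 symbol, 855 several and 53551 none; 20323 of the first were found in the RefSeq table of GRCz12tu, used for names only. In 1365 genes with several probe sets the brightest over 12 arrays was used. Genes entered the test when at least 3 arrays exceeded a brightness cut at the 33rd percentile over named probe sets. Values ran from 1.55 to 13.3, and the number of arrays limits the precision (median SE 0.08).

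The model, fitted to all 12 arrays, used limma 3.58.1 under R 4.3.3 (1 mean per group, eBayes with a variance trend, 8 residual degrees of freedom). Contrasts were 28 minus 7 dpf in each genotype and the difference between them, with Benjamini-Hochberg adjusted p over 14002 genes. The fit was tested on simulated data. Of 65 gene lists, 1 (adult globins) had no tested member; 1084 of 1226 typed genes matched. The members and lists were chosen with earlier results of these data known. Named genes are the 15 largest rises and falls with non-overlapping arrays, up to 6 called members per list with the largest change, the 10 largest differences between genotypes in each direction, and 8 with opposite calls; clone names were passed over (3 among rises, 4 among falls). Other genes named are cell type markers, and pdk1, pdk3a and pdk4, chosen after their values were seen. No promoter or protein sequences were used here, so a planned motif count was not run. Alternatives changed the scaling, the filter, the choice of probe set, the variance trend, the arrays fitted and the replicate block, and left out each array in turn.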

Additional observations from a re-analysis of the deposited data

Results flagged for a closer look

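The results below are age changes that differ between the genotypes by limma's test of the difference (mutant minus heterozygous, log2, adjusted p under 0.05), which holds for 6610 of 14002 genes. Groups of 3 arrays were not searched for single outlying samples.

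Among 36 crystallins the difference was called higher in 7 and lower in 6, shares near and below the 18.1% and 29.1% of all genes. It was -2.77 in crygs1 and -2.59 in crybb3, which rose less in mutants, and 3.24 in crygm2d17 and 2.64 in crygm2d16, which fell less. Embryonic globins fell less or rose, with differences of 3.32 in hbae1.1, 1.48 in hbae3 and 1.40 in hbbe2. The same sign was measured in the early-stage genes igf2bp1 (1.94), igf2bp3 (1.06) and hmga2 (0.98).

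Among photoreceptor and visual cycle genes the differences were -3.10 in opn1mw4, -1.99 in opn1lw1, 2.80 in ankrd33ab, 0.82 in fscn2b, 0.94 in rorab, 1.04 in rdh8b and 1.80 in rdh20. Inner retina and glia gave 1.38 in gabrr1, 1.33 in gabrr2a, 1.31 in cabp5b, -1.84 in kcnj20, 1.54 in vim, 1.66 in itm2cb and 0.92 in slc1a2a.

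In metabolism the sterol genes differed by -2.43 (lss), -2.31 (sqlea), -2.23 (hsd17b7), -2.15 (sc5d), -1.59 (msmo1) and -1.32 (tm7sf2), the pyruvate dehydrogenase kinases by 2.28 (pdk2a) and 1.84 (pdk2b), and ndufa4b by -1.13. Clock genes gave -2.49 in nr1d4b, 1.85 in dbpb and 1.59 in bhlhe41. Growth, stress and protein synthesis genes gave -1.09 in ccna2, 0.90 in irs1, 0.85 in socs2, -0.97 in stc2a, 1.29 in bbc3, -1.18 in vars2 and -0.91 in eif4g2a. The remaining differences were 2.03 in cbx7a, -1.30 in smarcad1a, -2.71 in fsta, -2.97 in col10a1a and -1.19 in cd74a.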

How the results depend on the processing

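No choice of filter, probe set, variance model or array left out moved the number of genes that rose or fell by more than 1.5 times. Leaving out 1 of the 6 mutant arrays gave 3315 to 3508 rises and 4802 to 5336 falls, 215 to 261 and 257 to 380 of at least 2-fold, and leaving out 1 of all 12 gave 5935 to 6699 differences between genotypes. Centring the arrays on their named probe sets gave 5499 rises, 385 of at least 2-fold, and 149 falls of at least 2-fold; it adds a constant to each array, which shifts every gene alike. Quantile scaling over named probe sets gave 4340 rises and 4777 falls. Replicate numbers do not pair the mutant samples: same-numbered deviations correlated at -0.08, 0.01 and -0.04, and a replicate block gave 3668 rises, 5320 falls and 6594 differences. All 387 genes named by the rules above kept the sign of their change. These rules favoured large or called changes, and markers or kinase genes named only outside them are not counted. The call was lost under at least 1 alternative in 16 of the 387: hbae1.1, igf2bp1, igf2bp3, trim71, dio2, grm8b, sall3a, ebf3a, pvalb8, lhx9, mhc1lia, csf3b, masp1, c3ar1, col4a6 and fkbp5. Among list medians of 3 or more members, sign changes included embryonic globins without the filter (0.038) and macrophages at the 50th percentile filter (-0.038). After centring, the medians of clock and antioxidant genes (0.13 each) changed sign. So did those of amacrine cell genes (0.093), cobalamin, folate and methionine cycle genes (0.062) and lysosome genes (0.034). Over lists and alternatives, 83 medians moved, 4 were counted apart as reversed and 795 kept their value within the spread. Some of the sign changes above are therefore counted in the other classes. The causes were not tested. Depth is not defined for arrays, and levels near background limit the dim genes.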
